A study of Homo sapiens with 12 samples.

Results

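HSP70, HSP90 and HSP60 chaperone mRNAs were measured in a pair of human breast cell lines with diallyl trisulfide (DATS), a garlic organosulfur compound. In SK-BR-3 cells HSPA8, HSPH1, HSP90AA1 and DNAJA1 rose by 1.27 to 1.41-fold. In MCF-10A cells HSP90AA1, HSPD1 and HSPE1 fell to 0.638 to 0.719 of their level with solvent. The responses of the lines differed by test for HSP90AA1 and HSPH1. The stress-inducible copies HSPA1A and HSPA1B passed the test in neither line. The 10 genes described were taken by their symbols (HSPA1A, HSPA1B, HSPA8, HSPH1, HSP90AA1, HSP90AB1, DNAJA1, DNAJB1, HSPD1 and HSPE1) from the 58735 genes of the deposited expression table, where each symbol stood on 1 row.

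SK-BR-3 cells come from a breast carcinoma and carry extra copies of ERBB2 (HER2), and MCF-10A is an immortalised, non-tumorigenic breast epithelial line. The 4 groups were SK-BR-3 cells with 20 µM DATS, SK-BR-3 cells with the vehicle DMSO at 0.07%, MCF-10A cells with 20 µM DATS and MCF-10A cells with DMSO, all harvested after 16 h. Each group holds 3 libraries from independent preparations, 12 in all. Each line stands for 1 cell line only, and the solvent content of the DATS dishes is not given in the sources used here. Levels are FPKM as the authors deposited them, read numbers divided by gene length and by a library size. That library size was not the total of reads in genes. It was lower in every SK-BR-3 library, for example 15900347 against 17950949 reads in SK-BR-3 DATS library 1. In MCF-10A it lay on either side, for example 17636730 against 16536482 reads in MCF-10A DMSO library 1.

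Cytosolic HSP70 proteins bind unfolded stretches of other proteins in a cycle that J-domain proteins start and nucleotide exchange factors end. HSP90 takes over many of these clients, among them kinases such as HER2, and HSP60 with its lid HSP10 folds proteins inside mitochondria. Heat shock factor 1 raises many of these genes under protein stress by binding arrays of the units GAA and TTC, the heat shock element.

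Matches to this element stood in the start regions of 8 of the 10 genes (16.2% of all 27305 genes with a window), and a stretch of 30 bases around 1 match in each is printed so that the arrays can be compared. Sequences are from RefSeq on GRCh38.p14, read 5′ to 3′ on the gene's strand, with matching units in capitals.
HSPA1A, chr6:31815429-31815458, plus strand: aaaccctgGAATATTCccgacctggcagcc
HSPA1B, chr6:31827625-31827654, plus strand: aacccctgGAATATTCccgacctggcagcc
HSPA8, chr11:123062170-123062199, minus strand: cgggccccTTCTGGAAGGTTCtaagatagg
HSP90AA1, chr14:102087111-102087140, minus strand: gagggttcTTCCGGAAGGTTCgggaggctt
HSP90AB1, chr6:44247823-44247852, plus strand: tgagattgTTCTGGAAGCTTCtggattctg
DNAJA1, chr9:33025268-33025297, plus strand: gccgggcgGAACTTTCCAGAAcgctcggtg
DNAJB1, chr19:14518453-14518482, minus strand: gcggggcgGAAGGTTCtggagggggctggc
HSPD1, chr2:197500059-197500088, minus strand: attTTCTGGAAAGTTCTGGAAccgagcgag

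An array of 3 alternating units, with 2 free bases between units, was present in start windows of HSPA8, HSP90AA1, HSP90AB1, DNAJA1 and HSPD1. That is 5 of 10 genes and 5 of their 16 windows, against 0.490% of all 35116 windows of 300 bases (250 before to 50 after an annotated start). The shorter 2-unit match (GAANNTTC or TTCNNGAA, each the same on both strands), which every 3-unit array contains, was present in 9 of the 16 windows and in 13.5% of all windows. HSPH1 and HSPE1 held neither form in these windows. The HSPD1 arrays, at 197500068 to 197500085 on chromosome 2, lie outside the HSPE1 window of 197500129 to 197500428. A CCAAT box on either strand was present in windows of 5 of the 10 genes (39.7% of all genes), and TATAAA on the coding strand in HSPA1A and HSPA1B (8.99% of all genes). A match describes letters and is not a measured binding site.

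The windows of the inducible HSPA1A and HSPA1B were 92.0% identical over 301 aligned columns. The HSPA1B stretch outside annotated exons (chr6:31827488-31827734, plus strand) shows their layout. Its capitals mark the 2-unit element that begins at position -105 from the annotated start, ahead of the TATAAA that begins at -29.
HSPA1B: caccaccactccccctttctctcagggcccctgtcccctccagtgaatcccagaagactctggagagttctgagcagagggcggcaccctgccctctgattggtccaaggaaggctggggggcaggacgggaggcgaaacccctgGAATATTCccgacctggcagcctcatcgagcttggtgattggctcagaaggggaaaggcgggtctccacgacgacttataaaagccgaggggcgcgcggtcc
The stretch before the third listed start of HSP90AB1 (chr6:44247693-44247865, plus strand) holds a pair of 3-unit arrays, which begin at positions -165 and -112 from that start.
HSP90AB1: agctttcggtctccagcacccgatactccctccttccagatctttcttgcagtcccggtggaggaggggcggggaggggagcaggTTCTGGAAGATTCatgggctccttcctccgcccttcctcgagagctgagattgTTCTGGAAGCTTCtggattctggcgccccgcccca

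**Figure D1:**
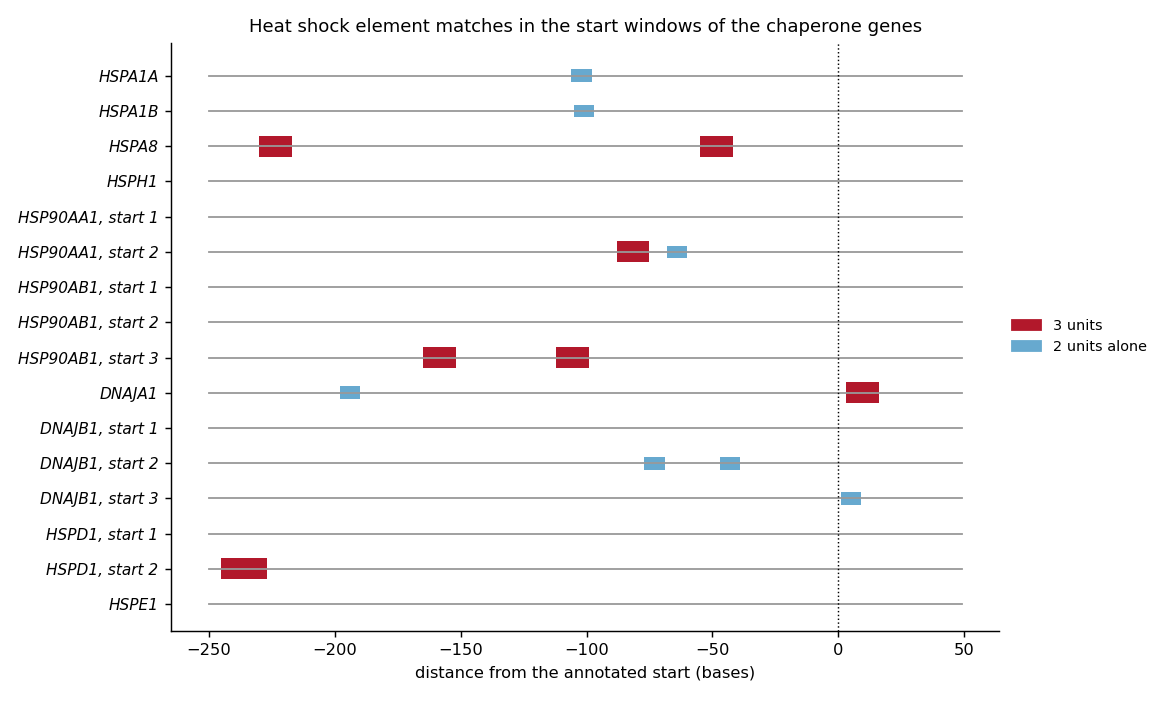
Heat shock element matches by distance in bases from the annotated start in the 16 start windows of the 10 genes, with arrays of 3 units in red and 2 units alone in blue. Arrays of 3 units stand in 5 windows, and HSPH1 and HSPE1 have no match.

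Libraries held 15295046 to 18407213 reads in genes. The tests covered 13194 genes that reached 1 FPKM in 3 or more libraries, and all 10 chaperone genes were among them. The cell lines differed in the sums of their markers: the summed FPKM of 7 luminal and HER2-amplicon genes was 4237 to 6541 in SK-BR-3 and 120.5 to 230.2 in MCF-10A libraries, and that of 7 basal genes was 7.65 to 39.9 in SK-BR-3 and 4928 to 6709 in MCF-10A libraries. Of the luminal genes GATA3 did not separate the lines, at 5.14 to 8.15 FPKM in SK-BR-3 and 4.83 to 6.87 FPKM in MCF-10A libraries. Oestrogen receptor ESR1 and progesterone receptor PGR reached at most 0.168 FPKM. Of the endothelial markers, CDH5 had 21.3 to 30.02 FPKM in SK-BR-3 DATS and 9.75 to 15.1 FPKM in SK-BR-3 DMSO libraries, while PECAM1, VWF and KDR reached at most 0.208 FPKM. Among leukocyte markers CD14 alone passed 1 FPKM (4.37 to 6.70 in MCF-10A DATS and 4.01 to 4.75 in MCF-10A DMSO libraries), and among fibroblast markers COL1A1 alone did so in every library. The share of reads in ribosomal RNA was 0.427 to 0.557% in SK-BR-3 DATS and 0.344 to 0.410% in SK-BR-3 DMSO libraries, and 0.261 to 0.386% in MCF-10A DATS and 0.243 to 0.257% in MCF-10A DMSO libraries. It thus separated the treatments in both lines, and its part in the results was not tested. Of all called genes 62.1% were higher with DATS in SK-BR-3 and 66.3% in MCF-10A, against 39.6% and 48.5% when FPKM was rescaled to total reads in genes and 53.5% and 50.8% after quantile normalization. In SK-BR-3 edgeR gave 50.8%.

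The 10 genes covered a wide range of levels. HSP90AB1, the constitutive HSP90, was highest, at 528 ± 34.9 FPKM in SK-BR-3 DATS, 490.4 ± 33.3 in SK-BR-3 DMSO, 645 ± 60.7 in MCF-10A DATS and 764 ± 19.8 FPKM in MCF-10A DMSO libraries (mean ± SD, n = 3 each). The constitutive HSP70 HSPA8 came next in all 4 groups, then the inducible HSP90 HSP90AA1. HSPA8 and HSP90AA1 overlapped in SK-BR-3 DMSO libraries, as did HSP90AB1 and HSPA8 in MCF-10A DATS libraries. HSPD1, which encodes HSP60, followed in every group, and it overlapped the next gene, DNAJA1, in SK-BR-3 DATS libraries. DNAJB1 and HSPA1A held the middle places, and HSPH1, HSPE1 and HSPA1B the lowest. Neighbours among these 3 overlapped, apart from HSPH1 over HSPA1B in MCF-10A DMSO (33.58 FPKM at the lowest against 27.1 FPKM at the highest) and HSPA1B over HSPH1 in SK-BR-3 DMSO libraries (26.2 against 24.8 FPKM).

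**Figure D2:**
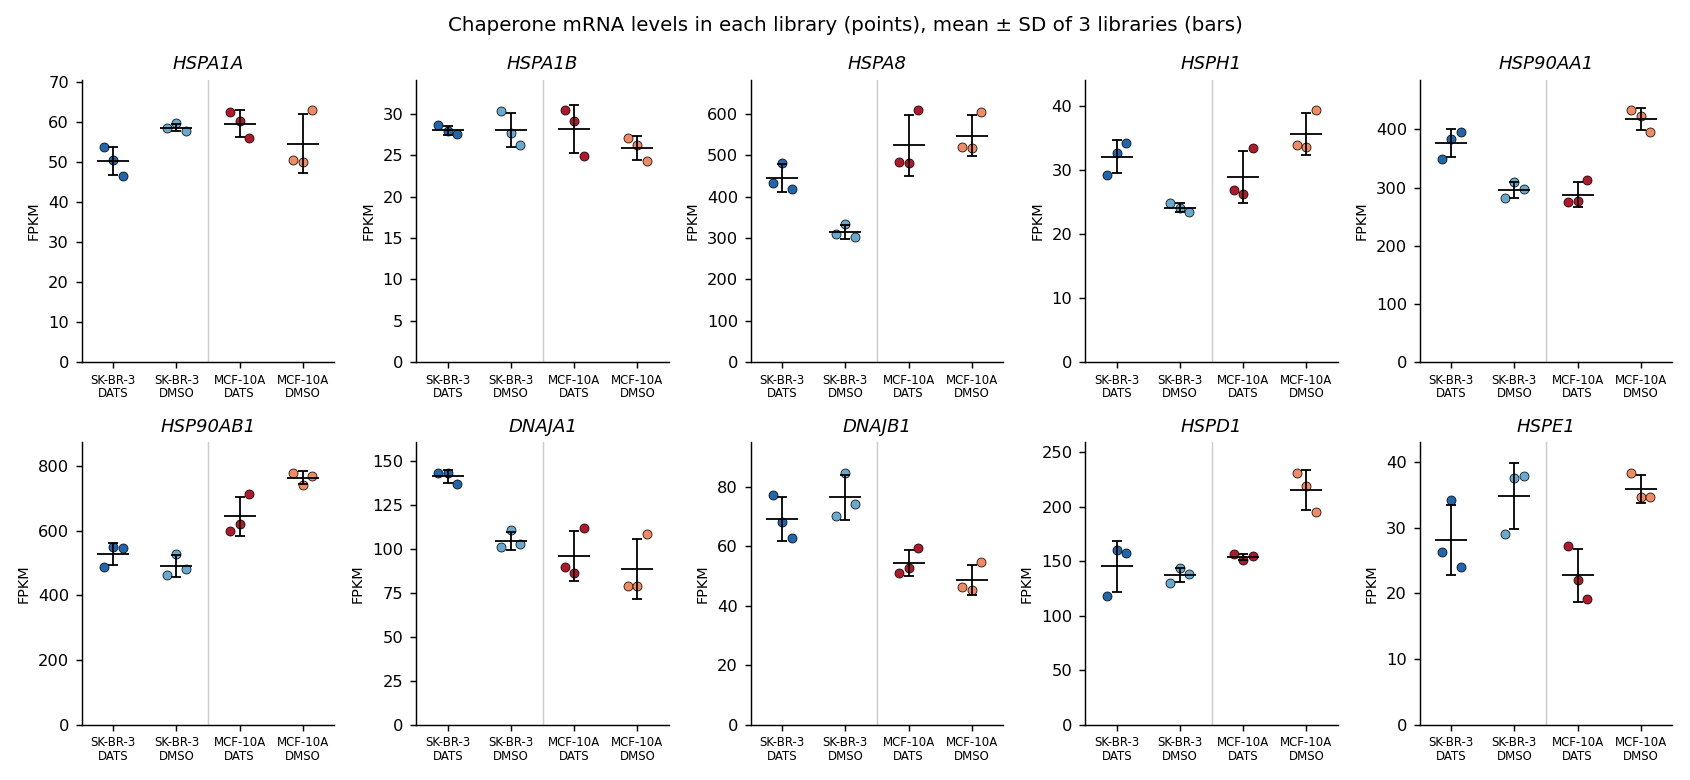
FPKM of each chaperone gene in the 12 libraries (points) by group, with bars at the mean ± SD of 3 libraries. For HSP90AA1 the DATS libraries lie above the DMSO libraries in SK-BR-3 (349 to 396 against 282 to 310.0 FPKM) and below them in MCF-10A (276 to 312 against 396 to 434 FPKM).

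With DATS, SK-BR-3 cells had more mRNA of 3 genes of the HSP70 cycle and of the inducible HSP90. HSPA8, HSPH1, DNAJA1 and HSP90AA1 rose, 4 of 10 genes, and none fell, against 18.1% of all tested genes called either way, 11.3% called higher and 6.87% called lower. The same 4 genes had DATS and DMSO libraries that did not overlap, with DATS higher (21.1% of all genes), and HSPA1A had all DATS libraries lower (12.4% of all genes; 33.5% either way). In RNA pooled from a dish, fewer cells that express a gene and less RNA per cell cannot be told apart. Fold changes and SE come from limma on log2(FPKM + 1), with p-values adjusted by Benjamini-Hochberg over all tested genes and calls at an adjusted p under 0.05.

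HSPA8, the constitutive cytosolic HSP70 (ENSG00000109971, chromosome 11, 123057489 to 123063230, minus strand), had 434, 483 and 419 FPKM in SK-BR-3 DATS libraries and 309.8, 333 and 301 FPKM in SK-BR-3 DMSO libraries. Every DATS library lay above every DMSO library. The log2 fold change was 0.50 ± 0.11 (adjusted p = 0.0127), a 1.41-fold rise with a 95% interval of 1.19 to 1.67. HSPH1, an HSP110 that exchanges nucleotides on HSP70 (ENSG00000120694, chromosome 13, 31134974 to 31162388, minus strand), had 29.3, 32.8 and 34.3 FPKM with DATS and 24.8, 24.0 and 23.4 FPKM with DMSO. Its groups did not overlap, and it rose by 0.40 ± 0.10 (adjusted p = 0.0222). DNAJA1, a J-domain partner of HSPA8 (ENSG00000086061, chromosome 9, 33025211 to 33039907, plus strand), had 143, 143 and 137 FPKM with DATS and 101, 110.4 and 102 FPKM with DMSO. It rose by 0.43 ± 0.13 (adjusted p = 0.0409). Its DATS libraries were the tightest of the 10 genes in SK-BR-3 after HSPA1B, with a coefficient of variation of 2.57%.

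The stress-inducible HSP70 pair did not pass in SK-BR-3. HSPA1A (ENSG00000204389, chromosome 6, 31815464 to 31817946, plus strand) had 53.8, 50.6 and 46.6 FPKM with DATS and 58.5, 59.7 and 57.9 FPKM with DMSO. All 3 DATS libraries lay below the DMSO libraries (-0.22 ± 0.10, adjusted p = 0.133), and the rescaling to total reads brought the difference past the threshold (-0.31, adjusted p = 0.0255). HSPA1B (ENSG00000204388, chromosome 6, 31827735 to 31830255, plus strand) had 28.6, 28.0 and 27.6 FPKM with DATS and 30.3, 27.7 and 26.2 FPKM with DMSO. Its groups overlapped, with a fold change of 1.00 and a 95% interval of 0.878 to 1.14. Both genes encode nearly the same protein and their reads may be split between them, and the summed pair had -0.15 (adjusted p = 0.240). DNAJB1, the stress-inducible J-domain partner (ENSG00000132002, chromosome 19, 14514770 to 14529770, minus strand), had 77.2, 68.0 and 62.6 FPKM with DATS and 70.1, 84.7 and 74.3 FPKM with DMSO (-0.14 ± 0.11, adjusted p = 0.407). Its groups overlapped.

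Of the HSP90 genes, HSP90AA1 (ENSG00000080824, chromosome 14, 102080738 to 102139699, minus strand) had 349, 384 and 396 FPKM in SK-BR-3 DATS libraries and 282, 310.0 and 297 FPKM in SK-BR-3 DMSO libraries. It rose in every pair of libraries, by 0.34 ± 0.09 on the log2 scale (adjusted p = 0.0190), or 1.27-fold (95% interval 1.11 to 1.45). HSP90AB1 (ENSG00000096384, chromosome 6, 44246166 to 44253888, plus strand) had 488, 549.8 and 547 FPKM with DATS and 463, 527 and 481 FPKM with DMSO, groups that overlapped (0.11 ± 0.09, adjusted p = 0.477). The mitochondrial pair did not pass. HSPD1 (ENSG00000144381, chromosome 2, 197486581 to 197516737, minus strand) had 118, 160.1 and 158 FPKM with DATS and 130.4, 144 and 138 FPKM with DMSO (0.07 ± 0.11, adjusted p = 0.745), with library 1 low in DATS. HSPE1, which encodes HSP10 (ENSG00000115541, chromosome 2, 197499994 to 197503457, plus strand), had 26.3, 34.1 and 23.9 FPKM with DATS and 29.03, 37.6 and 37.8 FPKM with DMSO (-0.30 ± 0.15, adjusted p = 0.195). It was lower with DATS in every pair of libraries, though the groups overlapped.

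The SK-BR-3 calls changed with the libraries used. Without SK-BR-3 DMSO library 3 none of the 10 genes was called in limma (HSPA8 adjusted p = 0.0512, HSP90AA1 0.0610, HSPH1 0.0745 and DNAJA1 0.110), without DATS library 3 only HSPA8 was, and without DATS library 2 or DMSO library 2 there were 2 calls. The share of all genes called was 9.38%, 9.48%, 17.2% and 10.2% in these fits in that order, against 18.1% in the main fit. DNAJA1 was also lost without SK-BR-3 DATS library 1 (adjusted p = 0.0930), DMSO library 1 (0.0823) or MCF-10A DATS library 1 (0.0546) and with edgeR (0.0542), and HSP90AA1 was lost after quantile normalization (0.128), after the rescaling to total reads (0.0632) and in the fit of the 6 SK-BR-3 libraries alone (0.0638). Without the filter on low values both HSP90AA1 (0.0529) and DNAJA1 (0.0969) were lost, where 5.67% of all genes were called. With any 1 library left out, the log2 change was 0.44 to 0.54 for HSPA8 and 0.35 to 0.46 for HSPH1. It was 0.31 to 0.40 for HSP90AA1 and 0.40 to 0.47 for DNAJA1.

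MCF-10A cells with DATS had less mRNA of the inducible HSP90 and of both mitochondrial chaperonin genes. HSP90AA1, HSPD1 and HSPE1 fell, 3 of 10 genes, and none rose, against 6.28% of all tested genes called either way, 4.17% called higher and 2.11% called lower. The DATS and DMSO libraries did not overlap in 5 genes, all lower with DATS, which were these 3, HSPH1 and HSP90AB1 (12.2% of all genes lower, 17.3% higher and 29.4% either way). The 10 genes together took 0.750 ± 0.049% of the reads in MCF-10A DATS and 0.942 ± 0.024% in MCF-10A DMSO libraries. In SK-BR-3 they took 0.672 ± 0.040% with DATS and 0.591 ± 0.014% with DMSO (SD, n = 3 each).

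HSP90AA1 had 276, 276 and 312 FPKM in MCF-10A DATS libraries and 434, 423 and 396 FPKM in MCF-10A DMSO libraries. The groups stood well apart, and the gene fell by 0.54 ± 0.09 on the log2 scale (adjusted p = 0.00913), to 0.690 of its DMSO level (95% interval 0.605 to 0.786). HSP90AB1 had 600.5, 621 and 714 FPKM with DATS and 780.0, 742 and 771 FPKM with DMSO. Every DATS library lay lower, but the difference did not pass (-0.25 ± 0.09, adjusted p = 0.137). It passed with DESeq2 (-0.25, adjusted p = 0.0485), after quantile normalization (-0.48, 0.0112) and after the rescaling to total reads (-0.33, 0.0377).

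HSPD1 had 156, 151 and 155 FPKM with DATS and 231, 219 and 195 FPKM with DMSO in MCF-10A. The DATS libraries agreed within 1.82% (coefficient of variation), and the gene fell by 0.48 ± 0.11 (adjusted p = 0.0337). HSPE1 had 27.1, 22.02 and 19.1 FPKM with DATS and 38.4, 34.7 and 34.7 FPKM with DMSO. It fell by 0.65 ± 0.15 (adjusted p = 0.0321), the largest change among the 10 genes in MCF-10A. HSPD1 and HSPE1 lie head to head and share 281 exonic bases on opposite strands, 6.62% of HSPD1 and 14.2% of HSPE1, and the strand setting of the counting is not given in the sources used here.

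Of the HSP70 genes in MCF-10A, HSPH1 had 26.9, 26.3 and 33.6 FPKM with DATS and 33.9, 33.6 and 39.4 FPKM with DMSO. The groups only just stayed apart, at 33.56 against 33.58 FPKM, and the difference of -0.30 ± 0.10 did not pass (adjusted p = 0.107). The HSPH1 difference passed with the replicate block (adjusted p = 0.0310) and after quantile normalization (-0.39, 0.0304). It also passed after the rescaling to total reads (-0.37, 0.0357) and without MCF-10A DATS library 3 (-0.41, 0.0460). HSPA8 had 483, 481 and 609.8 FPKM with DATS and 519.6, 518 and 605 FPKM with DMSO (-0.07 ± 0.11, adjusted p = 0.777). Library 3 was the highest in both groups. HSPA1A had 62.7, 60.3 and 56.0 FPKM with DATS and 50.6, 50.03 and 63.1 FPKM with DMSO, overlapping groups with a fold change of 1.10 (95% interval 0.948 to 1.27). HSPA1B had 30.5, 29.1 and 25.0 FPKM with DATS and 27.1, 26.3 and 24.3 FPKM with DMSO, with a fold change of 1.08 (0.949 to 1.23).

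Neither J-domain gene passed in MCF-10A. DNAJA1 had 89.5, 85.9 and 112 FPKM with DATS and 78.8, 78.5 and 108 FPKM with DMSO (0.12 ± 0.13, adjusted p = 0.636). DNAJB1 had 51.0, 52.8 and 59.2 FPKM with DATS and 46.4, 45.3 and 54.5 FPKM with DMSO (0.16 ± 0.11, adjusted p = 0.424). Library 3 was again the highest in each group. Both were higher with DATS in 3 of 3 same-numbered pairs.

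None of the 10 genes was called in MCF-10A without DATS library 2 (adjusted p = 0.0594 for HSP90AA1, 0.116 for HSPD1 and 0.109 for HSPE1) or without DMSO library 1 (0.0577, 0.152 and 0.139 in that order), and 1 was without DMSO library 2. The share of all genes called was 0.574%, 0.596% and 0.780% in these fits in that order, against 6.28% in the main fit. HSPD1 was also lost without MCF-10A DATS library 1 (0.0828) or 3 (0.0830) and SK-BR-3 DMSO library 3 (0.0528), HSPE1 without DATS library 3 (0.104), and both without the filter on low values (0.0788 and 0.0812). With any 1 library left out, the log2 change was -0.60 to -0.51 for HSP90AA1, -0.54 to -0.42 for HSPD1 and -0.78 to -0.54 for HSPE1.

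**Figure D3:**
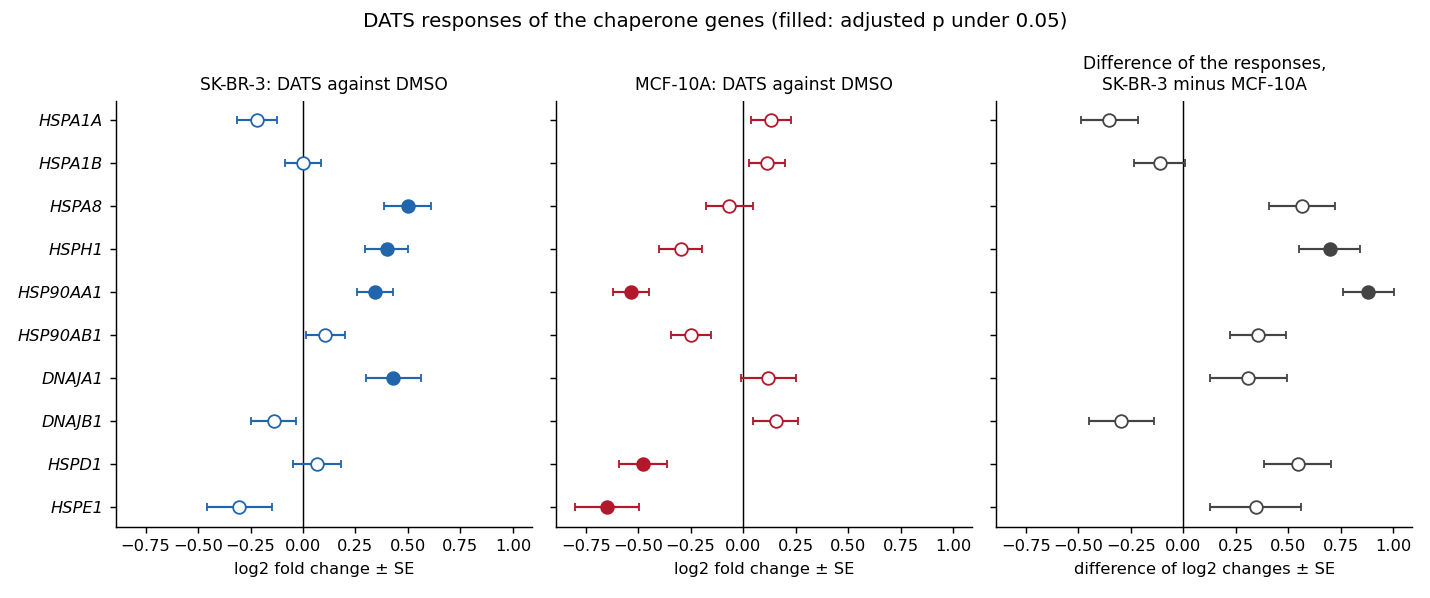
Log2 fold change ± SE of each gene with DATS against DMSO in SK-BR-3 and in MCF-10A, and the difference of these responses, with filled points for an adjusted p under 0.05. HSP90AA1 is at 0.34 in SK-BR-3, -0.54 in MCF-10A and 0.88 in the difference.

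The difference of the responses, SK-BR-3 minus MCF-10A, was tested in the same fit. HSP90AA1 and HSPH1 differed between the lines, 2 of 10 genes, both with the higher response in SK-BR-3, against 4.29% of all genes called either way with 2.48% called higher and 1.81% lower. The HSP90AA1 response differed by 0.88 ± 0.12 on the log2 scale (adjusted p = 0.00612), a factor of 1.84 (95% interval 1.53 to 2.21), and remained called with each of the 12 libraries left out (highest adjusted p = 0.0264). For HSPH1 the difference was 0.70 ± 0.15 (adjusted p = 0.0285). That call was lost without SK-BR-3 DATS library 3 (0.0683), SK-BR-3 DMSO library 2 (0.0652) or 3 (0.0706), MCF-10A DATS library 1 (0.0690) or 2 (0.0798), and MCF-10A DMSO library 1 (0.0620) or 2 (0.0601), and without the filter on low values (0.0603).

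HSPA8 differed by 0.57 ± 0.16 (adjusted p = 0.0710) and HSPD1 by 0.54 ± 0.16 (adjusted p = 0.0817), and both passed with the replicate block (adjusted p = 0.0147 and 0.0346), which gave 4 calls in place of 2. HSP90AB1 differed by 0.35 ± 0.13 (adjusted p = 0.158), HSPE1 by 0.35 ± 0.22 (adjusted p = 0.393) and DNAJA1 by 0.31 ± 0.18 (adjusted p = 0.361). The difference was negative for 3 of the 10 genes. These were HSPA1A at -0.35 ± 0.14 (adjusted p = 0.165), DNAJB1 at -0.30 ± 0.15 (adjusted p = 0.297) and HSPA1B at -0.11 ± 0.12 (adjusted p = 0.644). None of these 3 passed, but HSPA1A did without MCF-10A DMSO library 3 (-0.46, adjusted p = 0.0297), a response lower in SK-BR-3. The median difference over the 10 genes was 0.35, and over all tested genes 0.00498.

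Ratios within a library do not depend on its depth, and each was compared over 3 against 3 libraries, where an exact two-sided permutation test cannot give a p under 0.1. The ratio of HSP90AA1 to HSP90AB1 was 0.715, 0.699 and 0.724 in SK-BR-3 DATS and 0.608, 0.588 and 0.618 in SK-BR-3 DMSO libraries. In MCF-10A it was 0.459, 0.445 and 0.437 with DATS and 0.556, 0.571 and 0.514 with DMSO. The groups did not overlap in either line, with DATS higher in SK-BR-3 (0.24 on the log2 scale) and lower in MCF-10A (-0.29), each at the smallest exact p of 0.1.

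The ratio of the inducible HSPA1A plus HSPA1B to the constitutive HSPA8 was 0.190, 0.163 and 0.177 in SK-BR-3 DATS and 0.287, 0.262 and 0.279 in SK-BR-3 DMSO libraries. All DATS libraries lay lower (-0.65 on the log2 scale, exact p = 0.1). In MCF-10A the same ratio was 0.193, 0.186 and 0.133 with DATS and 0.150, 0.147 and 0.144 with DMSO, and it overlapped because of library 3 (0.19, exact p = 0.4). HSPE1 to HSPD1 averaged 0.196 ± 0.039 in SK-BR-3 DATS and 0.253 ± 0.027 in SK-BR-3 DMSO libraries (exact p = 0.2). In MCF-10A this ratio averaged 0.148 ± 0.025 with DATS and 0.167 ± 0.0096 with DMSO (exact p = 0.3; SD, n = 3 each), and both comparisons overlapped.

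**Figure D4:**
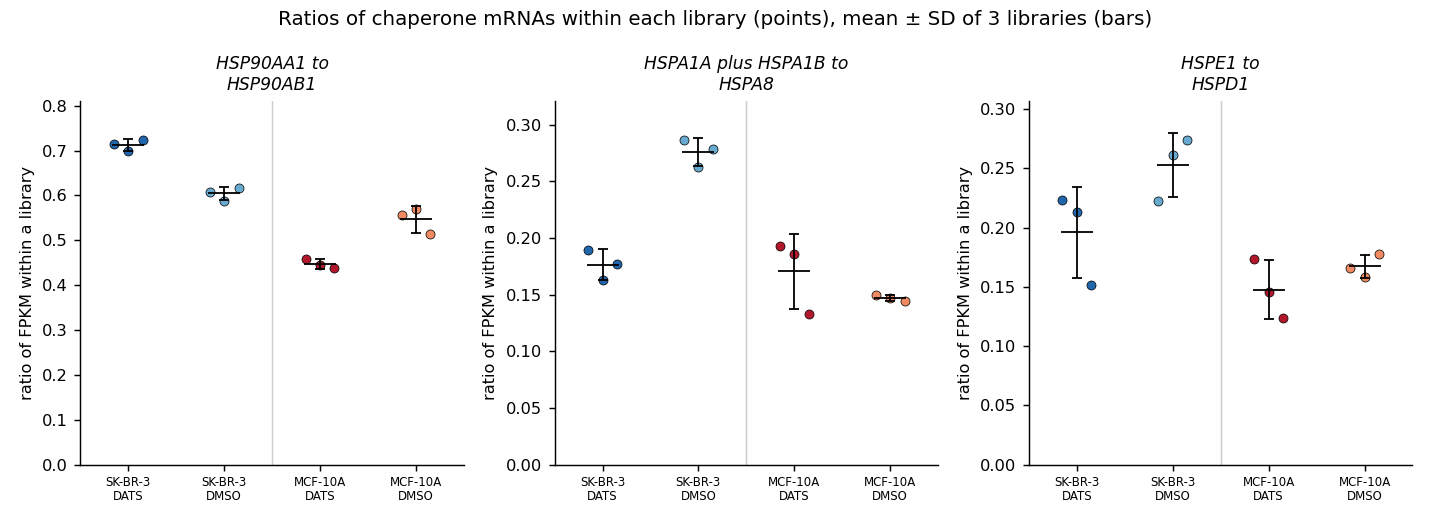
Ratios of FPKM within each library (points) by group, with bars at the mean ± SD of 3 libraries. HSP90AA1 to HSP90AB1 averages 0.713 with DATS and 0.604 with DMSO in SK-BR-3, and 0.447 with DATS and 0.547 with DMSO in MCF-10A.

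In DMSO alone, SK-BR-3 cells had, against MCF-10A cells, lower HSPA8, HSPH1, HSP90AA1, HSP90AB1 and HSPD1 and higher DNAJB1, 6 of 10 genes, against 72.1% of all tested genes called either way, 36.6% higher and 35.5% lower. The count of 6 is thus below the share of all genes. HSPA8 averaged 315 ± 16.5 FPKM in SK-BR-3 DMSO and 548 ± 49.99 FPKM in MCF-10A DMSO libraries (-0.79 ± 0.11, adjusted p = 4.8e-05), the largest of the 6 differences. HSP90AB1 averaged 490.4 ± 33.3 FPKM in SK-BR-3 and 764 ± 19.8 FPKM in MCF-10A (-0.64 ± 0.09, adjusted p = 6.82e-05). HSPD1 averaged 137 ± 6.71 FPKM in SK-BR-3 and 215 ± 18.3 FPKM in MCF-10A (-0.64 ± 0.11, adjusted p = 0.000307).

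HSP90AA1 averaged 296 ± 14.2 FPKM in SK-BR-3 DMSO and 418 ± 19.4 FPKM in MCF-10A DMSO libraries (-0.50 ± 0.09, adjusted p = 0.000255), and HSPH1 24.1 ± 0.709 FPKM in SK-BR-3 and 35.6 ± 3.29 FPKM in MCF-10A (-0.54 ± 0.10, adjusted p = 0.00052). DNAJB1 averaged 76.3 ± 7.51 FPKM in SK-BR-3 and 48.7 ± 5.01 FPKM in MCF-10A (0.64 ± 0.11, adjusted p = 0.000215). For these 6 genes the groups did not overlap (73.9% of all genes, with 37.3% higher and 36.6% lower). HSPA1A (0.11 ± 0.10, adjusted p = 0.313), HSPA1B (0.11 ± 0.09, adjusted p = 0.268), DNAJA1 (0.25 ± 0.13, adjusted p = 0.101) and HSPE1 (-0.05 ± 0.15, adjusted p = 0.772) did not pass. HSPA1A turned to -0.21 after quantile normalization (adjusted p = 0.0313) and passed in the other direction without MCF-10A DMSO library 3 (0.22, adjusted p = 0.0290). Without that library DNAJA1 passed too (0.40, adjusted p = 0.00579).

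Partners of the chaperones were followed in 69 genes of 7 roles, of which 64 were tested. In SK-BR-3 with DATS 16 rose and 3 fell, 29.7% of the tested partners against 18.1% of all genes, with a median log2 change of 0.14 against 0.03 over all genes. With edgeR 8 rose and 3 fell (17.2% against 17.1% of all genes), after the rescaling to total reads 6 rose and 4 fell (15.4% against 16.8%), and without the filter 9 rose and 1 fell (14.5% against 5.67%). In MCF-10A none rose and 2 fell (3.12%, against 6.28% of all genes), with a median of -0.04 against 0.02. The responses differed by test for 3 partners, all higher in SK-BR-3 (4.69%, against 4.29% of all genes). With the replicate block they differed for 14, again all higher in SK-BR-3 (21.9% against 9.82%), with DESeq2 for 9 (14.1% against 8.29%), after quantile normalization for 7 (10.9% against 4.65%) and with edgeR for 1 (1.56% against 3.52%). Among the SK-BR-3 partner calls, 6 remained without SK-BR-3 DMSO library 3 (9.38% of partners against 9.38% of all genes) and 8 without DATS library 3 (12.5% against 9.48%). In the fit of the 6 SK-BR-3 libraries alone 3 remained (4.84% against 10.4% of all genes there). The 2 MCF-10A calls were both lost without any 1 of MCF-10A DATS library 1, 2 or 3 or DMSO library 1 or 2, where 0.574% to 3.15% of all genes were called. With the replicate block 3 rose and 6 fell in MCF-10A (14.1% of partners against 15.9% of all genes).

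Among other HSP70 and HSP110 genes 3 of 7 tested rose in SK-BR-3 (42.9%, against 18.1% of all genes called either way and 11.3% called higher). All 7 had a positive log2 change, with a median of 0.37. HSPA13, a microsomal HSP70 relative, had 9.63, 10.55 and 11.01 FPKM in SK-BR-3 DATS and 5.45, 7.13 and 5.62 FPKM in SK-BR-3 DMSO libraries (0.70 ± 0.10, adjusted p = 0.00184). HSPA6, a strictly stress-inducible HSP70, rose but stayed near 1 FPKM, at 1.25, 1.07 and 0.969 FPKM with DATS and 0.562, 0.257 and 0.338 FPKM with DMSO (0.60 ± 0.14, adjusted p = 0.0147, lost without DMSO library 2 or 3). HSPA4, an HSP110 relative of HSPH1, had 28.6, 31.0 and 33.4 FPKM with DATS and 24.2, 24.2 and 22.6 FPKM with DMSO (0.37 ± 0.08, adjusted p = 0.00926). In MCF-10A none of the 7 passed (6.28% of all genes called either way). HSPA4 was 23.7 ± 0.891 FPKM in SK-BR-3 DMSO and 74.3 ± 1.07 FPKM in MCF-10A DMSO libraries (-1.61 ± 0.08, adjusted p = 3.85e-09).

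Of the J-domain partners 6 of 11 rose and 1 fell in SK-BR-3 (63.6%, against 18.1% of all genes called either way), with a median of 0.27. The count depended on the method. With edgeR the rises of DNAJB4, DNAJB6, DNAJC2 and DNAJC7 were lost (17.1% of all genes called). In the fit of the 6 SK-BR-3 libraries alone only DNAJB2 remained of these calls (10.4% of all genes called). DNAJB2 had 24.0, 19.5 and 17.6 FPKM in SK-BR-3 DATS and 13.5, 13.1 and 12.6 FPKM in SK-BR-3 DMSO libraries (0.59 ± 0.13, adjusted p = 0.0128), and the call held with each library left out. DNAJB4 averaged 4.59 ± 0.381 FPKM with DATS and 3.21 ± 0.778 FPKM with DMSO (0.42 ± 0.12, adjusted p = 0.0339). DNAJC6, which works with HSPA8 in removing clathrin coats, averaged 5.36 ± 0.803 FPKM with DATS and 3.84 ± 0.529 FPKM with DMSO (0.39 ± 0.11, adjusted p = 0.0300). Both calls were lost without SK-BR-3 DATS library 1 or 3 or DMSO library 2 or 3 (adjusted p up to 0.0996 and 0.114). DNAJC9, a histone chaperone with a J domain, fell in both lines. It averaged 10.9 ± 1.13 FPKM with DATS and 14.4 ± 1.09 FPKM with DMSO in SK-BR-3 (-0.37 ± 0.08, adjusted p = 0.0118), and 7.03 ± 0.0882 FPKM with DATS and 9.20 ± 0.297 FPKM with DMSO in MCF-10A (-0.35 ± 0.08, adjusted p = 0.0327).

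Of the HSP70 exchange factors and adaptors 3 of 10 rose and 1 fell in SK-BR-3 (40%, against 18.1% of all genes called either way). The 3 rises (ST13, STIP1 and TOMM34) were all lost with edgeR, where 17.1% of all genes were called. In the fit of the 6 SK-BR-3 libraries alone the fall was lost as well (10.4% of all genes called). STIP1 (HOP), which hands clients from HSP70 to HSP90, had 108, 122 and 122 FPKM in SK-BR-3 DATS and 78.0, 99.6 and 92.6 FPKM in SK-BR-3 DMSO libraries (0.38 ± 0.11, adjusted p = 0.0300, lost without DATS library 2 or 3 or DMSO library 1 or 3). The exchange factor BAG1, chosen after its values were seen because it was the 1 that fell, averaged 12.5 ± 1.13 FPKM with DATS and 16.4 ± 1.96 FPKM with DMSO (-0.36 ± 0.11, adjusted p = 0.0439, lost without SK-BR-3 DATS library 1 or 3, SK-BR-3 DMSO library 2 or 3, MCF-10A DATS library 1 or MCF-10A DMSO library 1, with an adjusted p up to 0.154). BAG2, of the same list, fell in MCF-10A, to 3.76, 3.46 and 3.67 FPKM with DATS against 5.33, 4.87 and 4.66 FPKM with DMSO (-0.36 ± 0.08, adjusted p = 0.0282). That call was lost with edgeR and with a pseudocount of 0.1. BAG2 was at most 0.336 FPKM in SK-BR-3 libraries.

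Of the HSP90 co-chaperones 2 of 13 rose in SK-BR-3 and none fell (15.4%, against 18.1% of all genes called either way). In MCF-10A none passed (6.28% of all genes). CHORDC1, an HSP90 partner, had 7.81, 10.2 and 9.77 FPKM in SK-BR-3 DATS and 6.67, 7.07 and 7.16 FPKM in SK-BR-3 DMSO libraries, and 3.21, 3.21 and 3.69 FPKM with DATS and 3.90, 3.84 and 4.70 FPKM with DMSO in MCF-10A. Its responses differed by 0.59 ± 0.14 (adjusted p = 0.0438). FKBP5, an immunophilin of the steroid receptor complex, was 1.93 ± 0.185 FPKM in SK-BR-3 DMSO and 30.6 ± 7.48 FPKM in MCF-10A DMSO libraries (-3.40 ± 0.16, adjusted p = 2.42e-09).

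The 8 subunits of TRiC, the ring chaperonin of the cytosol that folds actin and tubulin, had a positive log2 change in SK-BR-3 in 8 of 8 genes (6 of 8 after quantile normalization; median 0.21) and in none of 8 in MCF-10A (median -0.11), where CCT3 stood at -0.00048 and up to 2 of 8 were positive with a library left out (MCF-10A DATS library 1 or 2 or DMSO library 3). Only CCT4 passed. It had 101, 103 and 97.0 FPKM in SK-BR-3 DATS and 77.0, 86.2 and 80.1 FPKM in SK-BR-3 DMSO libraries (0.31 ± 0.07, adjusted p = 0.0125), and 100.3, 93.6 and 94.98 FPKM with DATS and 108, 103 and 105 FPKM with DMSO in MCF-10A. The responses of CCT4 differed by 0.43 ± 0.10 (adjusted p = 0.0344). HSPA13 was the remaining partner whose responses differed (0.59 ± 0.15, adjusted p = 0.0469). Each of the 3 differences was lost in 9 or 10 of the 12 fits with a library left out, among them those without SK-BR-3 DATS library 2 or 3, SK-BR-3 DMSO library 3, MCF-10A DATS library 1 or 2 and MCF-10A DMSO library 1 or 2 (highest adjusted p = 0.115).

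Mitochondrial partners showed 1 rise in 10 genes in SK-BR-3 (10%, against 18.1% of all genes called either way) and none in MCF-10A (6.28% of all genes). The medians were 0.02 and -0.08. The riser was CLPB, a mitochondrial disaggregase, named after its values were seen (4.99 ± 0.214 FPKM with DATS and 3.96 ± 0.255 FPKM with DMSO, 0.27 ± 0.07, adjusted p = 0.0189, lost without SK-BR-3 DATS library 3 or DMSO library 3). Among the regulators HSF1, the main heat shock factor, averaged 28.0 ± 3.08 FPKM in SK-BR-3 DATS and 25.8 ± 0.736 FPKM in SK-BR-3 DMSO libraries, and 26.7 ± 0.768 FPKM with DATS and 24.2 ± 1.84 FPKM with DMSO in MCF-10A, and passed in neither line. HSF4, a relative of HSF1, fell in SK-BR-3, to 1.94, 2.18 and 0.913 FPKM with DATS against 3.37, 3.04 and 3.14 FPKM with DMSO (-0.68 ± 0.17, adjusted p = 0.0194, and 0.0562 without DMSO library 3).

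**Figure D5:**
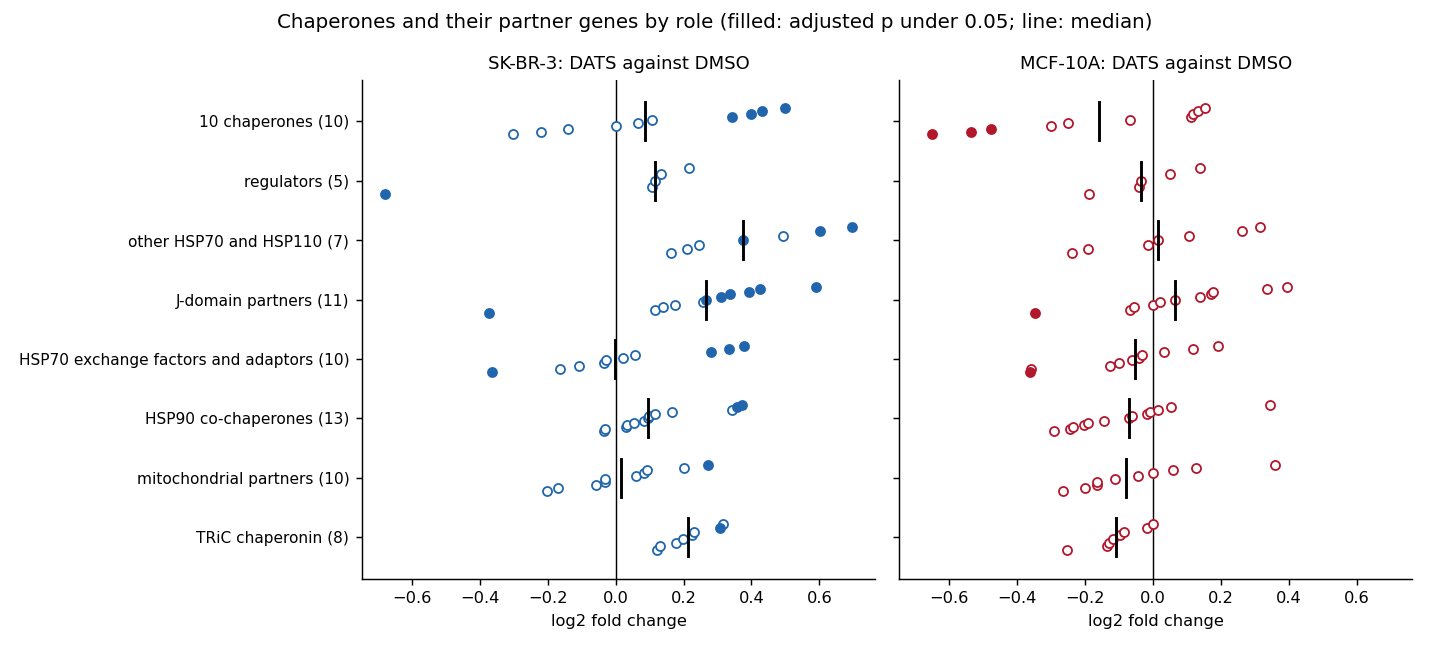
Log2 fold change with DATS against DMSO of the 10 chaperones and of 64 tested partner genes by role, in SK-BR-3 and in MCF-10A, with filled points for an adjusted p under 0.05 and a line at each median. The TRiC genes lie at or above 0.12 in SK-BR-3 and below 0 in MCF-10A.

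Across the 12 libraries, after the mean of each line was subtracted, HSP90AA1 went with HSP90AB1 (Pearson r = 0.89), HSPD1 (0.84) and HSPH1 (0.84) and against HSPA1A (-0.75). HSPA1A went with DNAJB1 (0.70) but little with its copy HSPA1B (0.18), and against HSPD1 (-0.61), HSPH1 (-0.60) and HSP90AB1 (-0.59). The genes with the pattern most like HSP90AA1 were BRMS1L (0.96), IPO5 (0.95), ANP32B (0.94) and TBCD (0.94). Most like HSPD1 were SSRP1 (0.97), the pseudogene HMGB1P10 (0.95), LMNB1 (0.94) and DDX54 (0.94), and most like HSPA1A were UBALD1 (0.94), PRKRIP1 (0.94), TRIP6 (0.92) and RMND5B (0.92). These values describe 12 libraries that share treatment, scaling and replicate number.

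For SK-BR-3 the authors' deposited table holds 6 of the 10 genes, with HSPA8 (log2 fold change 0.46), DNAJA1 (0.40), HSPH1 (0.38) and HSP90AA1 (0.31) higher at an adjusted p of 0.00085 to 0.0312. In the same authors' deposited table HSPA1A (-0.26, adjusted p = 0.118) and HSPE1 (-0.34, adjusted p = 0.170) are lower. For MCF-10A the authors' deposited table holds 5 of the 10 genes, all lower, with HSPE1 at -0.69, HSP90AA1 at -0.57, HSPD1 at -0.52, HSP90AB1 at -0.28 (adjusted p = 0.0424) and HSPH1 at -0.34 (adjusted p = 0.0586).

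Some reads may be shared with copies and overlapping neighbours. The 76 pseudogene rows named after these genes held at most 1.44% of a gene's reads in any library. HSPE1-MOB4, which shares 192 exonic bases with HSPE1 on the same strand, and AL671762.1, which shares 36.5% of the exonic bases of HSPA1B, were listed at 0 in all libraries, which does not show how shared reads were assigned. DNAJB1 shares 211 exonic bases with TECR and HSP90AA1 shares 197 with WDR20, on opposite strands. TECR had 2114 to 3241 reads, against 3002 to 5094 for DNAJB1, and HSPD1 had 7971 to 18358 reads, against 624 to 1356 for HSPE1.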

How the data were processed

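RNA-seq libraries of 4 groups (3 each) were compared. Reads were aligned with STAR 2.6.1d to GRCh38 and analysed with DESeq2, per the submitters' processing notes. The authors deposited FPKM for all genes, and for each line a list of changed genes with read counts, normalized signal (counts over a size factor), log2 fold changes and p-values, per the file headers. Whole reads were recovered from the deposited FPKM (704820 of 704820 values within 1e-06).

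The main test was limma 3.58.1 (R 4.3.3), with trend, on log2(FPKM + 1) over 13194 genes that reached 1 FPKM in 3 or more of 12 libraries, with 4 group means and Benjamini-Hochberg adjustment at 0.05. Fold changes on this scale understate changes of low genes. Alternatives were another pseudocount, no filter, quantile normalization, edgeR 4.0.16 and DESeq2 1.42.0 on recovered reads, each line alone, HSPA1A and HSPA1B summed, pseudogene reads added, a replicate block and each library left out. Rescaling to total reads was chosen after seeing the data. The scripts were tested on simulated data.

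Same-numbered libraries deviated together (correlations of 0.186 to 0.394), though the labels do not say what they share. The main fit and the exact tests of the ratios did not pair them. The numbers served as pairs only in the replicate block and in counts over pairs of libraries. The p-values measure the spread between 3 preparations a group. The members and lists were chosen with earlier results of these data known. The 10 genes were all named; partners were those called with the largest change, up to 8 a comparison and 3 a list, and likeness was the highest Pearson r of 4 genes. Start regions are from RefSeq, and protein sequences were not used here.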

Additional observations from a re-analysis of the deposited data

Results flagged for a closer look

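The responses to DATS differed between the lines by test (SK-BR-3 minus MCF-10A, log2, limma) for HSP90AA1 (0.88, adjusted p = 0.00612), HSPH1 (0.70, adjusted p = 0.0285), CHORDC1 (0.59, adjusted p = 0.0438), HSPA13 (0.59, adjusted p = 0.0469) and CCT4 (0.43, adjusted p = 0.0344). The HSP90AA1 call held with each of the 12 libraries left out, and that of HSPH1 was lost in 7 of the 12 fits. CHORDC1, HSPA13 and CCT4 were each lost in most of these fits. They are 3 of 64 tested partners (4.69%, against 4.29% of all genes).

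The ratio of HSP90AA1 to HSP90AB1 was higher with DATS in every SK-BR-3 library and lower in every MCF-10A library. The changes of the log2 ratio lie 0.53 apart, a difference that was not tested.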

How the results depend on the processing

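The number of the 10 genes called in SK-BR-3 was 4, and 2 without the filter on low values and 0 to 4 with a library left out. In MCF-10A it was 3, and 1 without the filter, 5 after quantile normalization, 5 after rescaling to total reads and 0 to 3 with a library left out. For the difference of responses it was 2, and 1 without the filter, 4 after quantile normalization, 4 with DESeq2, 4 with the replicate block and 1 to 4 with a library left out, where 1 of the 4 without MCF-10A DMSO library 3 is HSPA1A, lower in SK-BR-3. Between lines in DMSO it was 6, and 6 to 8 with a library left out. The share of all genes called also moved with a library left out. It was 9.38% to 20.3% in SK-BR-3 and 0.574% to 14.8% in MCF-10A. For the difference of responses it was 0.948% to 7.90%, and between lines 67.4% to 72.5%. Beside the calls named above, the replicate block changed no other call of these genes. These directions turned (log2). In SK-BR-3 with DATS HSPA1B gave -0.062 after quantile normalization, -0.0658 with edgeR, -0.0275 with DESeq2, -0.0873 after rescaling and -0.0444 to 0.0565 with a library left out, and HSPD1 gave -0.0276 after quantile normalization, -0.0243 after rescaling and -0.0092 to 0.21 with a library left out. In MCF-10A DNAJA1 gave -0.0047 after quantile normalization, and HSPA8 gave -0.18 to 0.0066 with a library left out. Between lines HSPA1A gave -0.21 after quantile normalization and -0.0102 after rescaling, HSPA1B -0.0708 and -0.0092, DNAJA1 -0.0052 after quantile normalization, and HSPE1 -0.12 to 0.0696 with a library left out. Rescaling moved the median of all genes by -0.110 between lines. With a library left out the change of the log2 ratio of HSP90AA1 to HSP90AB1 was 0.22 to 0.25 in SK-BR-3 and -0.33 to -0.26 in MCF-10A. The cause of these shifts was not tested.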

Other observations

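The pseudogene HSPD1P6, chosen after its values were seen, had 19, 43 and 65 reads in SK-BR-3 DATS and 13, 22 and 25 reads in SK-BR-3 DMSO libraries. In MCF-10A it had 0, 1 and 0 reads with DATS and 0 in each DMSO library.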
